A study of Ovis aries with 3 samples.

Results

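Cytosolic ribosomal protein genes were followed in single cells of whole sheep embryos. Members were all genes whose symbol starts with RPL or RPS and a number, together with *RPLP0* and *RPLP1*, leaving out ribosomal S6 kinases and pseudogene names. The rule found 61 annotated features of 26478, which carry 51 different symbols, 35 for the large and 16 for the small ribosomal subunit. *RPS25* is the name of 7 of these features, *RPL17* of 4 and *RPS12* of 2, and these are told apart here by their Ensembl identifier.

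The study asked how the short tail of the Hulunbuir short-tailed sheep (HSTS), which carries a missense variant of the mesoderm transcription factor gene *T* (*Brachyury*), arises against the longer tail of the Hu sheep (HS), which has the wild-type allele. The 3 libraries analysed here are E19 HSTS, E19 HS and E16 HS, that is, day 19 and day 16 after insemination, and each stands alone for its group. Where 3 values stand in a row below they follow this order. The labels name 1 embryo for each library, whereas the study's methods speak of 3 E16 HS embryos, so the E16 HS library may hold cells of several embryos. Breed, *T* genotype, embryo and library all change together between E19 HSTS and E19 HS, and day, embryo and library change together between E16 HS and E19 HS, so none of these can be told apart.

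Ribosomal proteins form the protein scaffold of the ribosome, the machine that reads messenger RNA into protein, and most are needed in equal numbers. Their messengers are among the most abundant in any growing cell, share a 5′ terminal oligopyrimidine (TOP) motif, and are translated together when the mTOR pathway is active. Red cell precursors depend strongly on them: loss of 1 copy of a ribosomal protein gene causes Diamond-Blackfan anaemia in humans, and maturing red cells fill their RNA pool with globin messengers before they stop making ribosomes. RPS6 is the small subunit protein that S6 kinase phosphorylates downstream of mTOR.

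Cells with 200 to 6000 genes, 1000 to 30000 unique molecular identifiers (UMIs, each standing for 1 captured RNA molecule) and at most 10% mitochondrial UMIs were kept, which left 9618, 10629 and 11329 cells, with 88733467 to 113213654 UMIs a library. Cells with at least 5 UMIs of *AHSP*, the alpha globin chaperone, and 2 of *ALAS2*, the first enzyme of red cell haem synthesis, are called erythroid. They were 2448 cells in E19 HSTS (25.5%; exact binomial 95% interval 24.6 to 26.3%), 1305 cells in E19 HS (12.3%; 11.7 to 12.9%) and 1857 cells in E16 HS (16.4%; 15.7 to 17.1%). All remaining kept cells are the other cells. Red cell lysis buffer was used when the embryos were dissociated, so the erythroid share reflects what that step left.

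The erythroid label held against its markers. Of 16 further red cell genes with a feature, 15, 15 and 16 were higher in erythroid than in other cells, and their summed level was 3451 to 4417 counts for every 1000000 UMIs (CPM) in erythroid and 269 to 306 CPM in other cells. Of 26 markers of other cell kinds 1, 1 and 2 were higher in erythroid cells, with summed levels of 69.3 to 175 CPM there and 1415 to 1556 CPM in other cells. The red cell marker that was not higher at E19 was *HBB*, under 0.11 CPM in both classes, and the others were *GP9* in each library and *APOA2* in E16 HS. *SOX10*, *C1QC* and *C1QB* were at 0 in the erythroid cells of E19 HS. In the other cells *AHSP* was met with at least 1 UMI in 10.1%, 3.05% and 27.1% of cells. A stricter gate, given at the end, also limited the other cells to at most 1 UMI of *AHSP* and 0 of *ALAS2*. Beyond that, the part of *AHSP* in the results below was not tested. Between 31 and 37 kept barcodes were shared by any pair of libraries, at most 0.348% of a library's cells.

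Not every member could be described. In the kept cells 5 features had 0 UMIs in all 3 libraries, namely 4 of the *RPS25* and 1 of the *RPL17* features, and 11 features stayed under 100 UMIs in every class of cells. In each comparison 50 of the 61 features had at least 100 UMIs in the higher class and were compared. *RPL34* had 437, 420 and 911 UMIs in the kept cells and was the lowest of those compared. The RefSeq annotation of sheep (assembly ARS-UI_Ramb_v3.0) lists 79 protein-coding symbols that meet the same rule, of which 49 were members. The other 30, among them *RPS3*, *RPS7*, *RPS19*, *RPL5* and *RPLP2*, had no feature of that name in the tables and are not analysed here. Many ribosomal protein genes have near-identical processed copies in mammalian genomes, and reads that fit several copies cannot be assigned, so a low count of 1 feature is uncertain as a level of the gene. A UMI is counted once for each captured 3′ end, so levels of different genes are compared below as captured molecules and are not divided by length.

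The shares below are those of the members alone, without the 30 symbols that had no feature. Ribosomal protein messengers made up 11.8%, 12.8% and 15.7% of all UMIs of erythroid cells and 24.1%, 26.0% and 22.8% of those of the other cells. The share was therefore lower in erythroid than in other cells of all 3 libraries, and the order of the libraries was not the same in the 2 classes. The exact binomial 95% interval of the first of them ran from 11.82 to 11.84%. It covers counting error only, as do all intervals given here. With 1 library a group there is no replicate error, no difference between libraries was tested, and every statement on libraries is a description of these 3 libraries.

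**Figure D1:**
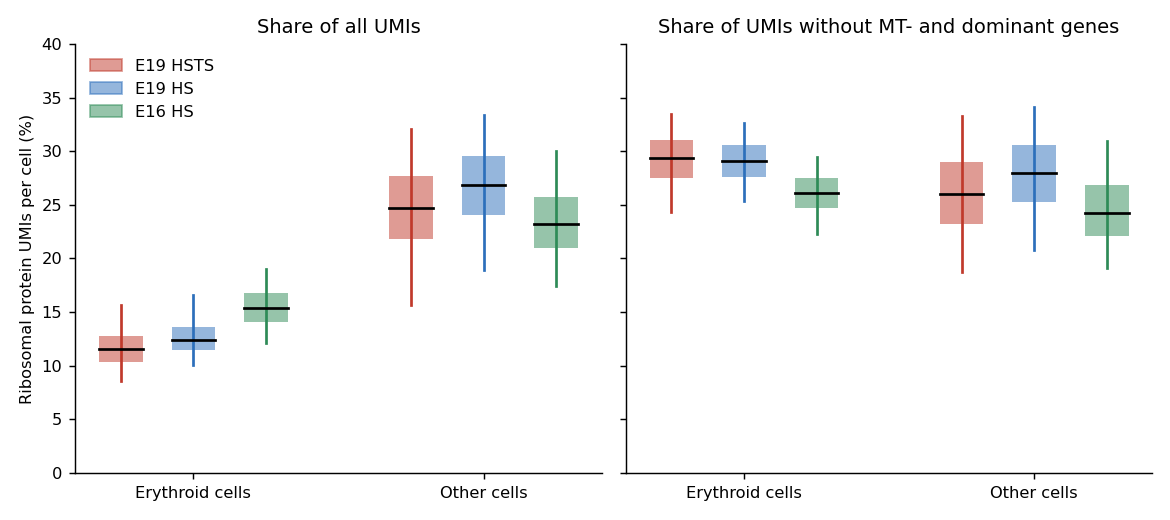
Ribosomal protein share of UMIs in single cells (y axis, percent) of erythroid and other cells in the 3 libraries. The left panel uses all UMIs and the right one leaves out mitochondrial genes and the 5 genes that dominate erythroid cells. Lines span the 5th to 95th percentile of cells, boxes the interquartile range and black bars the median. On the left the erythroid medians lie at 11.5, 12.4 and 15.4%, under the 24.7, 26.8 and 23.2% of other cells, and on the right they lie above them.

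The cells of a class varied around these values. In erythroid cells the median cell devoted 11.5%, 12.4% and 15.4% of its UMIs to the family, and 90% of cells lay from 8.55 to 15.7%, 10.0 to 16.6% and 12.2 to 19.0%. In the other cells the medians were 24.7%, 26.8% and 23.2%, with 90% of cells from 15.7 to 32.1%, 18.9 to 33.4% and 17.4 to 30.0%. In E19 HSTS the 95th percentile of erythroid cells and the 5th percentile of other cells met at 15.7%, in E19 HS they lay apart and in E16 HS the ranges overlapped.

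The lower share of erythroid cells went with 5 very abundant transcripts. Each of these took over 1% of the erythroid UMIs. They are *FTH1*, the heavy chain of the iron store ferritin, and 4 features without a symbol (ENSOARG00020004314, ENSOARG00020015536, ENSOARG00020015576 and ENSOARG00020015678). Together they held 57.9%, 54.3% and 37.2% of erythroid UMIs and 2.37%, 1.81% and 1.63% of the UMIs of other cells. Once these and the mitochondrial genes were taken out of the total, the family held 29.0%, 28.9% and 25.9% of the remaining UMIs in erythroid cells, and 25.6%, 27.4% and 23.9% in other cells. The direction was the opposite on this scale. The 5 genes were picked by their share in erythroid cells alone, so leaving them out raises the erythroid share more by construction. Of all UMIs the erythroid share was 0.490, 0.491 and 0.690 times that of other cells, and of the remaining UMIs it was 1.13, 1.06 and 1.08 times.

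Within the erythroid cells the same pattern was seen along the 5 dominant transcripts. The cells of each library were ordered by the share of their UMIs that these transcripts held and split into 4 bins of equal cell number, a split chosen after the data were seen. From the lowest to the highest bin the ribosomal protein share of all UMIs went from 14.3 to 9.63% in E19 HSTS, 15.0 to 10.8% in E19 HS and 17.8 to 13.6% in E16 HS. Both shares have the same total, so a fall of this kind is built in. Of the remaining UMIs the family held 28.1% in the lowest and 29.2% in the highest bin of E19 HSTS, 28.0 and 29.7% in E19 HS, and 25.1 and 26.8% in E16 HS. On that scale the share was nearly level across the bins and lay lower in E16 HS than in both E19 libraries in each of them.

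**Figure D2:**
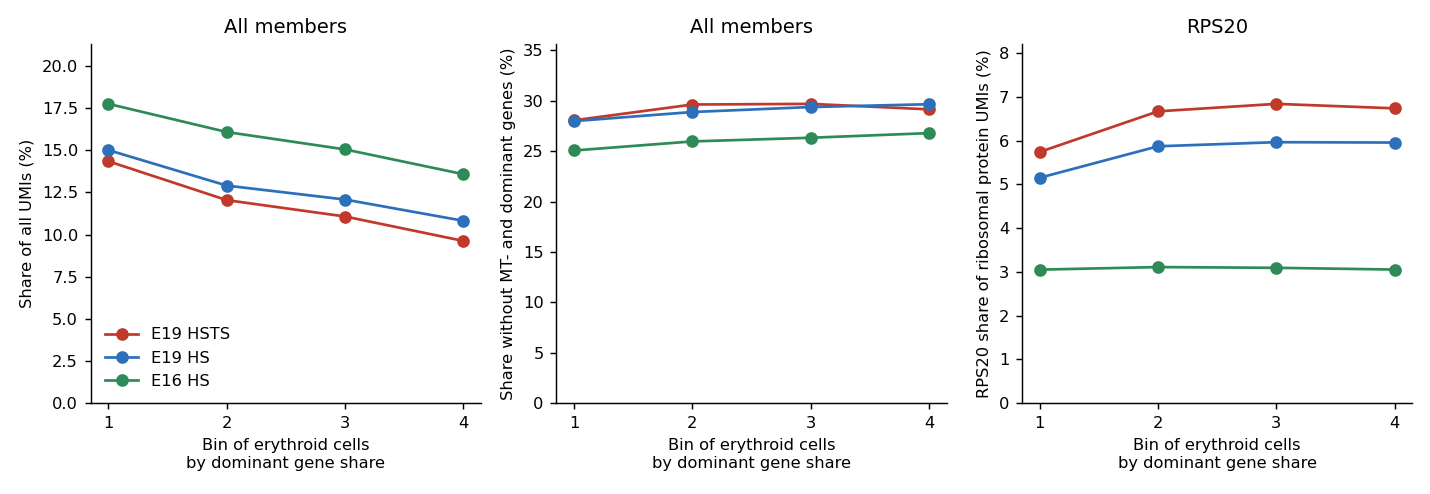
Erythroid cells of each library in 4 bins of equal cell number from the lowest to the highest share of the 5 dominant transcripts (x axis). The y axes give, in percent, the ribosomal protein share of all UMIs (left), of the UMIs without mitochondrial and dominant genes (middle), and the part of ribosomal protein UMIs that is *RPS20* (right). The left curves fall, the middle ones stay between 25.1 and 29.7%, and the *RPS20* curve of E16 HS lies near 3% in all bins while both E19 curves lie above 5%.

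Single members spanned a wide range of levels. Among the high members in other cells of E19 HS were *RPL10*, *RPS18*, *RPS27A* and *RPL32*, at 9880, 9832, 9708 and 9584 CPM. *RPS27A* encodes a fusion of ubiquitin and a small subunit protein. The lowest compared members in other cells of E19 HS were *RPL34* at 5.58 CPM, *RPL26L1* at 121 CPM, *RPS26* at 207 CPM, the second *RPS12* feature (ENSOARG00020003307) at 256 CPM and *RPS27L* at 328 CPM. The 10 highest members held 36.2 to 37.2% of the family's UMIs in other cells and 36.9 to 40.4% in erythroid cells.

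**Figure D3:**
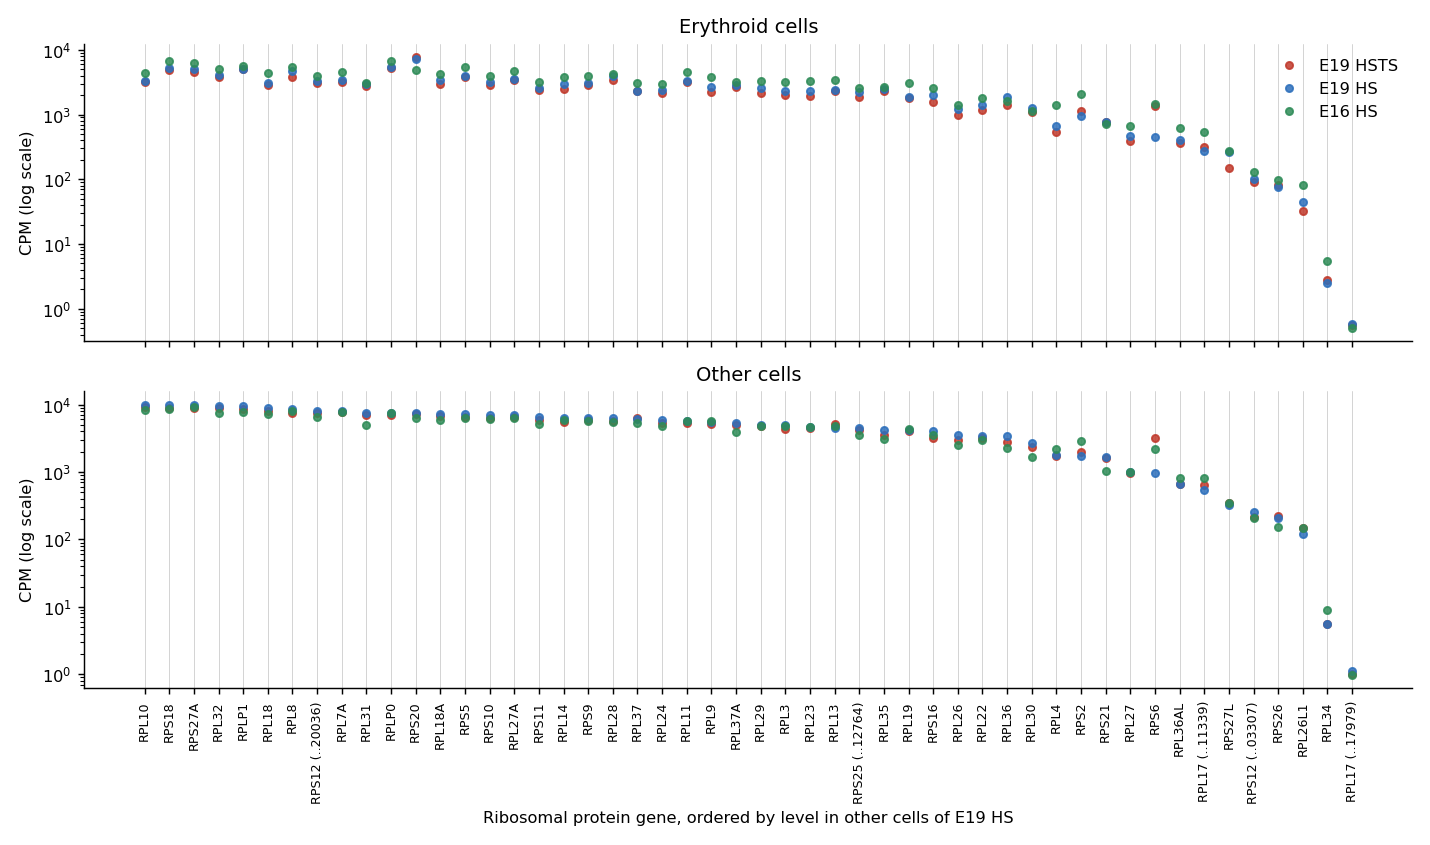
Level of each member in CPM (y axis, log scale) in erythroid cells (top) and other cells (bottom). Each x position is a member described here, ordered by its level in the other cells of E19 HS, and the coloured points are the 3 libraries. Most points of a member lie close together over a wide range of levels, and *RPS6* stands out with E19 HS under both other libraries in both panels (442 CPM in erythroid and 951 CPM in other cells).

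When each cell was thinned to 3000 UMIs, so that depth was equal, the median cell carried 44 to 47 members with at least 1 UMI, and 39 to 43 members were met in over 90% of cells. Thinning left out 1, 0 and 17 erythroid and 1105, 1345 and 1300 other cells with too few UMIs. At the other end 11 or 12 members were met in under 1% of thinned cells, and these are the features under 100 UMIs in every class and, in the erythroid cells of both E19 libraries, *RPL34*.

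Among the members with a feature, the balance of the subunits was nearly the same in all classes apart from 1 gene. Genes of both subunits are among the 30 symbols without a feature, so the ratios do not describe whole subunits. Small subunit UMIs were 0.538, 0.528 and 0.532 times the large subunit UMIs in other cells and 0.609, 0.574 and 0.541 times in erythroid cells. Without *RPS20* the ratios were 0.493, 0.485 and 0.489 in other cells and 0.506, 0.484 and 0.494 in erythroid cells. The higher small subunit fraction in erythroid cells of E19 HS was thus gone without *RPS20*, and in E19 HSTS most of it was.

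The comparison of E19 HSTS with E19 HS sets the breed with the *T* variant against the wild type on the same day. *RPS6* was the member that differed most between the 2 libraries. In erythroid cells its level was 1367 CPM in E19 HSTS and 442 CPM in E19 HS, and in E16 HS it was 1445 CPM. In other cells it was 3229, 951 and 2174 CPM in the same order. E19 HS was thus the low library in both classes. The count tables do not show where in the gene, or on which copy of it, the reads fell, and whether *RPS6* was counted alike in the 3 libraries was not tested.

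Between the E19 libraries *RPS6* was 3.09-fold higher in E19 HSTS in erythroid cells (95% interval 3.03 to 3.15, from 60822 and 10765 UMIs) and 3.40-fold higher in other cells (3.37 to 3.43, from 177836 and 61229 UMIs). Of 50 members, *RPS6* was the only one at least 1.5-fold higher in erythroid cells, where 9.32% of all 5140 genes tested were, and the only one in other cells, where 8.09% of 9617 genes were. Among genes of at least 300 CPM in either library, 10 of 223 (4.48%) differed by 2-fold or more in erythroid cells and 6 of 427 (1.41%) in other cells. *RPS6* was the 1 ribosomal protein gene in each of these sets, of 45 and 46 members at that level.

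The same *RPS6* counts can be read per cell, which restates the difference and is not further support for it. After thinning to 3000 UMIs, at least 1 *RPS6* UMI was met in 97.4%, 71.9% and 98.5% of erythroid cells, and the median erythroid cell held 4, 1 and 4 UMIs. In other cells the shares were 99.8%, 93.0% and 99.7%, and the median cell held 9, 3 and 6 UMIs. Without thinning the shares were 100%, 99.8% and 99.9% in erythroid and 99.8%, 96.3% and 99.7% in other cells. The median cell of E19 HS thus held fewer *RPS6* UMIs in both classes.

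Cells with both markers of a pair that the study or common knowledge ties to a cell kind were then taken from the other cells, wherever at least 20 such cells were present. The *RPS6* level in *PAX6* and *SOX2* cells (markers of neural progenitors) was 3647, 1022 and 2450 CPM. In *COL1A2* and *TMEM88* cells (mesenchyme) it was 3190, 934 and 2112 CPM. In *TWIST1* and *MEOX1* cells (somites) it was 3391, 985 and 2192 CPM. E19 HS was the lowest library in every pair that could be compared. E19 HSTS stood to E19 HS at ratios from 3.34 to 4.03 over 8 pairs, and that of E16 HS to E19 HS from 2.22 to 3.01 over 9 pairs. The pairs of 1 library share its preparation and are not replicates.

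**Figure D4:**
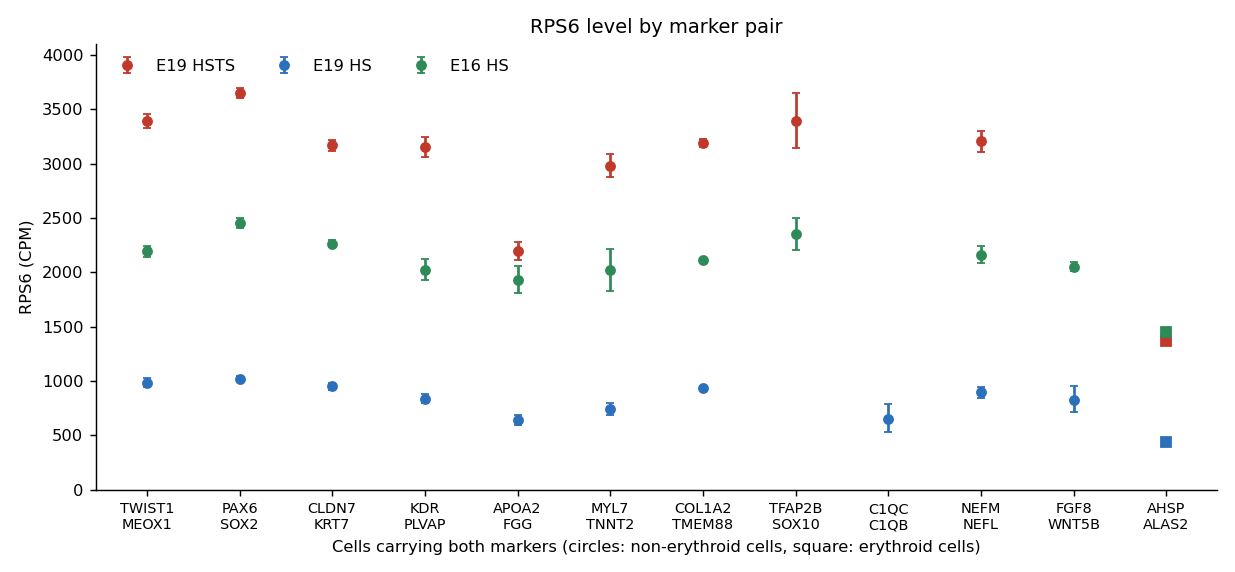
*RPS6* level in CPM (y axis) in other cells that carry both markers of a pair (circles, x axis) and in erythroid cells (squares at the right) of the 3 libraries. Bars are exact binomial 95% intervals and cover counting error only, and pairs with under 20 cells in a library are not drawn for it. In each pair drawn for E19 HS and another library the E19 HS circle is the lowest, between 642 and 1022 CPM. The lowest circle of the other libraries is 1932 CPM. The squares lie at 1367 CPM in E19 HSTS, 442 CPM in E19 HS and 1445 CPM in E16 HS.

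The other members moved little between the E19 libraries. In erythroid cells 1 member, *RPS27L*, was lower by at least 1.5-fold in E19 HSTS, where 9.22% of all genes were. *RPS27L* is a p53-responsive paralogue of *RPS27*. Its level in erythroid cells was 147, 265 and 277 CPM, and in other cells it was 345, 328 and 345 CPM. E19 HSTS was low in erythroid cells and not in other cells. Set against E19 HS, E19 HSTS stood at a ratio of 0.556 in erythroid cells (95% interval 0.537 to 0.575) and 1.05 in other cells (1.03 to 1.07).

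In other cells no member was lower by 1.5-fold, against 2.1% of all genes, and the lowest were *RPS16* (0.788) and *RPL36* (0.815). Both lay low in erythroid cells too, at 0.761 and 0.740. After *RPS6* the highest ratios in erythroid cells were those of *RPS2* (1.19) and of *RPL17* (ENSOARG00020011339; 1.14), and in other cells those of *RPL26L1* (1.21) and *RPL17* (1.17). The median ratio of the members was 0.917 in erythroid and 0.922 in other cells, with interquartile ranges from 0.854 to 0.965 and from 0.905 to 0.969. Over all genes tested the medians were 1.02 and 1.16. Under trimmed-mean (TMM) scaling the medians of the members were 0.970 and 0.799, and the same 2 genes in erythroid cells and *RPS6* in other cells passed 1.5-fold.

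*RPL26L1*, a paralogue of *RPL26*, lay on opposite sides in the 2 classes. Its level in erythroid cells was 32.2, 44.3 and 80.7 CPM, and in other cells it was 147, 121 and 145 CPM. The same ratio for *RPL26L1* was 0.727 (0.671 to 0.787) in erythroid and 1.21 (1.17 to 1.24) in other cells. Per 100 UMIs of *RPL26* there were 3.29, 3.62 and 5.79 UMIs of *RPL26L1* in erythroid and 4.89, 3.42 and 5.84 in other cells. *RPL36AL*, a paralogue of *RPL36A*, stood at 358, 407 and 610 CPM in erythroid and 661, 668 and 805 CPM in other cells. *RPL3L*, known from heart and skeletal muscle, and *RPL10L*, known from testis, were nearly silent. In the kept cells *RPL3L* had 3, 5 and 9 UMIs and *RPL10L* had 4, 0 and 0 UMIs.

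**Figure D5:**
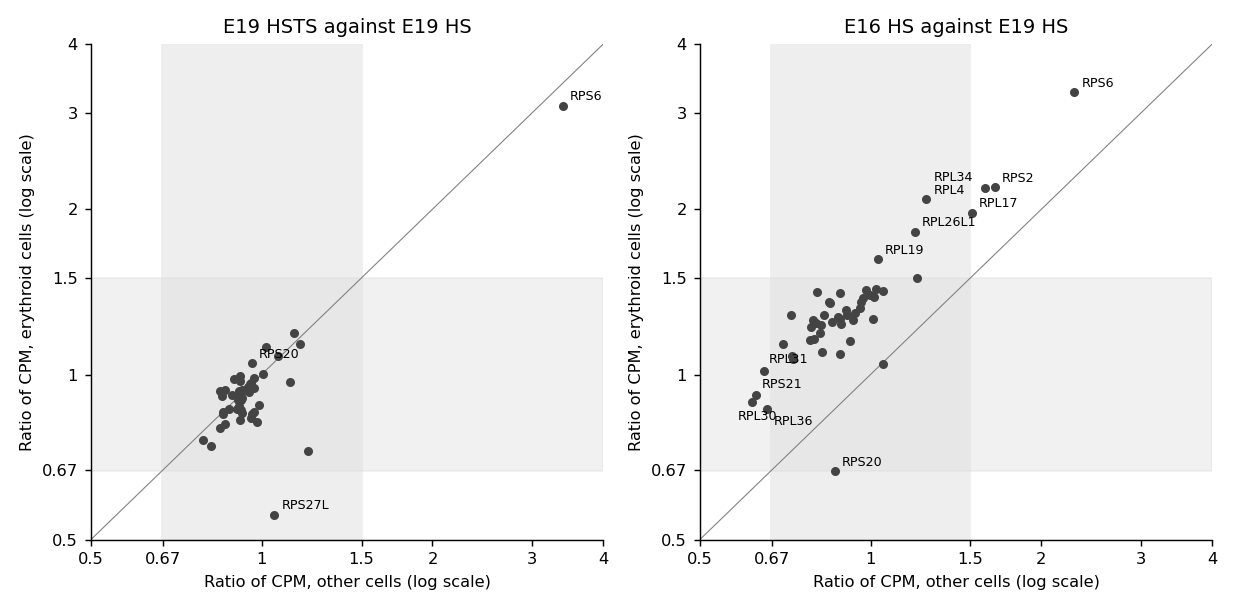
Ratio of CPM of each member between libraries in other cells (x axis) and in erythroid cells (y axis), both on log scales, for E19 HSTS against E19 HS (left) and E16 HS against E19 HS (right). The grey bands mark ratios within 1.5-fold and the line marks equal ratios. On the left *RPS6* lies alone at 3.40 and 3.09 and *RPS27L* below the cloud at 0.556 in erythroid cells, and on the right *RPS6* lies at 2.29 and 3.27 and *RPS20* at 0.865 and 0.667.

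The comparison of E16 HS with E19 HS follows the wild type over 3 days. It shares the E19 HS library with the comparison above, so the low *RPS6* of that library enters both. *RPS6* was 3.27-fold higher in E16 HS in erythroid (95% interval 3.20 to 3.34) and 2.29-fold higher in other cells (2.27 to 2.31).

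In erythroid cells 7 of 50 members were at least 1.5-fold higher in E16 HS, where 72% of all 5631 genes tested were, and none was lower, where 1.95% were. The members' median ratio was 1.28 and that of all genes 1.84, so the members lay under most genes on this scale. After *RPS6* the higher members were *RPS2*, *RPL34*, *RPL4*, *RPL17* (ENSOARG00020011339), *RPL26L1* and *RPL19*. *RPS2* went from 958 CPM in E19 HS to 2101 CPM in E16 HS (ratio 2.19), and *RPL4* from 666 to 1390 CPM (2.09). *RPL17* went from 273 to 538 CPM (1.97). *RPL34* rested on 61 and 150 UMIs and had a ratio of 2.19 with a wide interval of 1.61 to 3.00.

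*RPS20* was the member furthest the other way. Its level in erythroid cells was 7599, 7255 and 4841 CPM, so both E19 libraries lay above E16 HS. The ratio of E16 HS to E19 HS was 0.667 (0.663 to 0.672), just short of 1.5-fold. In other cells *RPS20* stood at 7118, 7412 and 6410 CPM, with a ratio of 0.865. *RPS20* is a small subunit protein, and it was the highest member in the erythroid cells of both E19 libraries, while in E16 HS *RPLP0* and *RPS18* lay above it.

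The dominant transcripts held 54.3% of erythroid UMIs in E19 HS and 37.2% in E16 HS, and the split of calls depended on whether they were counted. Of the remaining UMIs 4 members were higher (*RPS6*, *RPS2*, *RPL34* and *RPL4*), against 37.7% of all genes, and 3 were lower (*RPS20*, *RPL36* and *RPL30*), against 4.26%, with a median of 0.930 and 1.34 over all genes. On that scale *RPS20* was at 0.486, *RPL36* at 0.630 and *RPL30* at 0.648. Under TMM scaling 1 member was higher, against 16.4% of all genes, and 14 were lower, against 10.5%, with a median of 0.726. *RPS6* was the member called higher on each of these scales, at 3.27, 2.38 and 1.86.

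In other cells 4 members were at least 1.5-fold higher in E16 HS, against 17.2% of 10078 genes, and 4 were lower, against 10.4%. The higher members were *RPS6* (2.29), *RPS2* (1.66), *RPL34* (1.59) and *RPL17* (1.51), each of which was also higher in erythroid cells. *RPS2* went from 1717 CPM in E19 HS to 2846 in E16 HS and stood at 1962 in E19 HSTS. The lower members were *RPL30* (0.618), *RPS21* (0.630), *RPL31* (0.648) and *RPL36* (0.656). *RPL31* stood at 6988, 7565 and 4903 CPM, and *RPL30* at 2348, 2678 and 1654 CPM. For these genes both E19 libraries lay on the same side of E16 HS. Scaled to the UMIs of the members alone, none of the 4 stayed past 1.5-fold (0.704, 0.718, 0.739 and 0.749 in the order named), while 4 members were higher. The members' median was 0.884 and that of all genes 1.12. Under TMM scaling 2 members were higher, against 13.4% of all genes, and 5 lower, against 12.7%.

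The marker pairs hold part of the same other cells, so their ratios break these differences down and are not separate support. *RPL34* and *RPL36* were not followed in the pairs. Over 9 pairs the E16 HS to E19 HS ratio of *RPS2* lay from 1.56 to 2.24 and passed 1.5-fold in all 9. *RPL17* lay from 1.38 to 2.04 and passed in 6. *RPL4*, which was not past 1.5-fold over all other cells (1.25), lay from 1.14 to 1.86 and passed in 2. The ratio of *RPL30* lay from 0.599 to 0.800 and was past 1.5-fold in 7, that of *RPS21* from 0.610 to 0.774 in 6, and that of *RPL31* from 0.618 to 0.792 in 5. All 9 ratios of each gene lay on 1 side of equality.

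Erythroid cells were also compared with the other cells of the same library. Of all UMIs 48 of 50 members were at least 1.5-fold lower in erythroid cells of E19 HSTS, and 47 and 23 in the other two libraries, and none was higher. The same held for most genes: 90.2%, 87.9% and 70.2% of all genes tested were lower and 3.01%, 2.65% and 4.09% higher. The members' median ratios were 0.452, 0.470 and 0.679, above the medians of all genes of 0.242, 0.278 and 0.481.

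The exceptions in E19 HSTS were *RPS20* and *RPLP0*, the stalk protein that carries the other P proteins on the large subunit. In E19 HS *RPS27L* joined them, and in E16 HS many more members were within 1.5-fold. *RPS20* was at 7599 CPM in erythroid and 7118 in other cells of E19 HSTS, at 7255 and 7412 in E19 HS, and at 4841 and 6410 in E16 HS. Its ratios were 1.07, 0.979 and 0.755, so that it was the 1 member level between the classes at E19. *RPLP0* was at 5196 and 7105 CPM, 5401 and 7452, and 6815 and 7535, with ratios of 0.731, 0.725 and 0.905. *RPS27L* had ratios of 0.427, 0.808 and 0.804. Among the lowest were *RPL10* (0.352, 0.332 and 0.532), *RPL18* (0.356, 0.344 and 0.604) and *RPL26L1* (0.220, 0.365 and 0.555).

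Of the remaining UMIs most of these differences were within 1.5-fold. In E19 HSTS 2 members were higher in erythroid cells, against 10.3% of all genes, and 1 was lower, against 58.8%. In E19 HS 3 were higher, against 11%, and none lower, against 54.5%. In E16 HS none was past 1.5-fold in either direction, against 11.1% higher and 44.1% lower. The members were thus mostly within 1.5-fold between the classes where 44.1 to 58.8% of genes were lower in erythroid cells. *RPS20* had ratios of 2.47, 2.11 and 1.19 on this scale, *RPLP0* had 1.69, 1.56 and 1.42, and the third member past 1.5-fold in E19 HS was *RPS27L* at 1.74. *RPL26L1* was the lower member in E19 HSTS, at 0.509. The medians of the members were 1.05, 1.01 and 1.07, and those of all genes 0.559, 0.599 and 0.755.

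TMM scaling, which sets the middle of all genes level, moved the calls to the other side. On it 42, 31 and 9 members were higher in erythroid cells, where 27.5%, 24.1% and 20.7% of all genes were, and none was lower, where 39.4%, 45.5% and 38.8% were. A lower level of ribosomal protein messengers in erythroid cells is therefore a statement about the share of all UMIs, and it does not hold on the other scales.

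The make-up of the family also varied along the bins of erythroid cells. *RPS20* held 5.74% of the family's UMIs in the lowest bin of dominant transcripts and 6.74% in the highest in E19 HSTS, 5.15 and 5.95% in E19 HS, and 3.05% in both in E16 HS. The highest bin of E16 HS, with 43.6 to 61.6% dominant transcripts, partly overlapped the lowest bin of E19 HS, with 21.1 to 51.6%. The *RPS20* parts of these 2 bins were 3.05 and 5.15%. Cells were not matched on dominant transcripts between libraries, and what lies behind the difference was not tested. *RPL4*, a large subunit protein, lay the other way, at 0.576 and 0.357% in E19 HSTS, 0.629 and 0.408% in E19 HS, and 1.00 and 0.751% in E16 HS. *RPLP1*, a stalk protein, was higher in the highest bin of each library, at 3.94 and 4.75%, 3.78 and 4.38%, and 3.41 and 3.81%. *RPS6* held 1.22 and 1.10% of the family in the outer bins of E19 HSTS, 0.354 and 0.333% in E19 HS, and 0.924 and 0.906% in E16 HS, so its order among libraries was the same in all bins.

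Among the other cells the share of the family differed between marker pairs. *PAX6* and *SOX2* cells had 25.7%, 27.5% and 24.6% of their UMIs in ribosomal protein messengers, and *CLDN7* and *KRT7* cells (gut epithelium) had 25.2%, 27.3% and 24.6%. At the low end *MYL7* and *TNNT2* cells (heart muscle) had 21.6%, 22.3% and 21.9%, and *KDR* and *PLVAP* cells (blood vessel and blood-forming lineage) had 22.4%, 23.0% and 21.5%. The neural progenitor and gut epithelium pairs thus lay above the heart and vessel pairs in each library. *FGF8* and *WNT5B* are the study's markers of limb ectoderm, which it equates with the apical ectodermal ridge. The identity of these cells was not checked here with further markers. Cells with both had 25.4% in E19 HS, from 24 cells, and 21.6% in E16 HS, from 377 cells. In E16 HS they lay below the heart pair. *APOA2* and *FGG* cells (extraembryonic endoderm) had 21.9% and 22.4% at E19 and 24.6% at E16, so their place in the order was not the same on both days. Heart pair cells also had more mitochondrial UMIs at E19, 6.14% and 4.59%, than *PAX6* and *SOX2* cells, 3.14% and 2.65%, and the part of this in the family's share was not tested.

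The proportions of the members within the family were compared between each pair and the remaining other cells of its library. Scaled to the UMIs of the members, 3 of 1400 cases of a member in a pair and library passed 1.5-fold in either direction, where 16.9% of 76029 such cases over all genes did. A case needed 100 UMIs in the pair, observed or as the remaining cells would give. The scale centres the members by construction. These were *RPL26L1* in *NEFM* and *NEFL* cells (early neurons) of E19 HS at 1.51, *RPL36AL* in *C1QC* and *C1QB* cells (myeloid cells) of E19 HS at 1.60, and *RPS26* in *APOA2* and *FGG* cells of E19 HSTS at 0.652. None of them was past 1.5-fold in 2 libraries, and each rested on 151 to 213 UMIs.

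In other cells the share also moved with mitochondrial content. Cells with under 0.5% mitochondrial UMIs had a median ribosomal protein share of 29.4%, 31.3% and 27.4%, and cells with 5 to 10% had 20.5%, 22.8% and 20.03%. Across cells Pearson's r with the mitochondrial share was -0.46, -0.42 and -0.54, and with log UMI total it was -0.17, -0.24 and -0.28, over 7170, 9324 and 9472 cells. Shares of 1 total are tied to each other, and cells of a library are not independent, so these are descriptions. In erythroid cells r with the mitochondrial share was 0.33, 0.37 and 0.048.

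Genes that work with the ribosomal proteins were read from lists. *RPSA*, *FAU* and *RACK1*, ribosome genes outside the naming rule, stayed close to the members between the E19 libraries, with ratios of 0.883, 0.858 and 0.926 in erythroid and 0.850, 0.833 and 0.896 in other cells. *RPSA*, a small subunit protein that is also a laminin receptor, was the 1 of them past 1.5-fold between E16 HS and E19 HS in erythroid cells, from 2189 to 3725 CPM (1.70).

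Ribosome assembly factors did not follow the members in erythroid cells. Of 25 listed genes 19 had a feature, and of the 15 tested in E19 HSTS against E19 HS 11 were lower, where 9.22% of all genes were, and none was higher, where 9.32% were. The median ratio of these genes was 0.567, beside 0.917 for the members and 1.02 for all genes. *FBL*, the methyltransferase fibrillarin that modifies ribosomal RNA, stood at 197, 408 and 486 CPM. *NHP2*, of the complexes that make pseudouridine, stood at 38.7, 93.9 and 184 CPM. *UBTF*, which activates ribosomal RNA gene transcription, was the exception at 21.1, 16.4 and 45.3 CPM. In other cells 1 of 19 was higher, against 8.09% of all genes, and none lower, with a median of 1.10. Of the remaining UMIs the erythroid median was 0.615, and 9 of 15 were lower.

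Between E16 HS and E19 HS 15 of 18 assembly factors tested in erythroid cells were higher and none lower, with a median of 2.44, against 72% of all genes higher. On the scale of the remaining UMIs 11 of the 18 were higher, against 37.7% of all genes. In other cells 5 of 19 were higher and none lower (median 1.34), against 17.2% of all genes. *NOP58*, a small nucleolar RNA protein, was at 41.0, 75.5 and 180 CPM in erythroid cells. In *FBL*, *NHP2* and *NOP58* the erythroid cells of E19 HSTS were thus the lowest and those of E16 HS the highest.

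Mitochondrial ribosomal proteins build the separate ribosome of mitochondria. Their list of 66 genes was taken by symbol from the annotated features themselves, so each has a feature by construction. In erythroid cells 23 of 62 tested were lower in E19 HSTS than in E19 HS and none higher, with a median of 0.700, against 9.22% of all genes lower. In other cells 2 of 66 were higher, against 8.09% of all genes, and none lower, with a median of 1.00. Between E16 HS and E19 HS 40 of 63 were higher in erythroid cells (median 1.59), where 72% of all genes were, and 16 of 65 in other cells (median 1.30), where 17.2% were, with none lower. Of the remaining UMIs 9 of the 63 were higher in erythroid cells, against 37.7% of all genes, and 1 was lower, against 4.26%.

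Translation factors and other messengers with a TOP motif, 14 of 20 listed genes, were closer to the members. In E19 HSTS against E19 HS 1 of 14 was lower in erythroid cells, against 9.22% of all genes, and none was past 1.5-fold in other cells, with medians of 0.885 and 1.00. In E16 HS against E19 HS 8 of 14 were higher in erythroid cells (median 1.52), where 72% of all genes were, and 3 of 14 in other cells (median 1.02), where 17.2% were, with none lower. In erythroid cells 4 of the 14 were higher of the remaining UMIs, against 37.7% of all genes. Between erythroid and other cells 18, 16 and 3 of 19 assembly factors, 55 of 66, 41 of 65 and 20 of 66 mitochondrial ribosomal proteins, and 11, 11 and 6 of 14 translation factors were lower, beside the 90.2%, 87.9% and 70.2% of all genes given above. Of the remaining UMIs 12, 2 and 0 of the 19 assembly factors were lower, against 58.8%, 54.5% and 44.1% of all genes. On that scale 1, 3 and 3 were higher, against 10.3%, 11% and 11.1%, and the medians of the assembly factors were 0.568, 1.19 and 1.28.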

How the data were processed

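Single-cell RNA-seq (10x Genomics 3′ v3.1 chemistry) was measured in whole embryos, with 1 library for each of 3 groups. Reads were aligned by the authors with Cell Ranger 6.1.2 to a sheep genome, and they deposited raw UMI counts per gene and barcode; their notes also name Seurat 4.1.1 and R 4.1.2. The deposited tables hold 11114, 12064 and 12645 barcodes, and kept cells were chosen from them by genes, UMIs and mitochondrial share as given with the results. Doublets were not removed, and 1 alternative leaves out the 8% of cells with most UMIs.

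Counts were summed by library and class with Python 3.11.15, numpy 2.4.6 and pandas 2.3.3. Levels are counts for every 1000000 UMIs of the class. Ratios carry exact conditional binomial 95% intervals (scipy 1.17.1), which cover counting error only, and genes with at least 100 UMIs in the higher class were compared. A gene is called past 1.5-fold by its ratio alone. With 1 library a group no test was run and no p-value is given. TMM factors came from edgeR 4.0.16 in R 4.3.3, used for scaling only. The alternatives were other filters on cells, a stricter erythroid gate, other scales and other count minimums. The interval and call code was tested on simulated counts.

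The members and gene lists were chosen with earlier results of these data known. Named genes are the 5 members with the largest ratio in each direction of a comparison among those with at least 500 UMIs, *RPS6*, the 5 highest and 5 lowest members, and members with a paralogue, and a few others were named after their values were seen. Some genes that these rules and lists name are not reported here. The E16 HSTS embryos are not analysed here, and no genome of the build of these files was used, so no coordinates are given.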

Additional observations from a re-analysis of the deposited data

Results flagged for a closer look

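As a share of ribosomal protein UMIs, *RPL26L1* was lower in E19 HSTS than in E19 HS in erythroid cells (ratio 0.784) and higher in other cells (1.30), opposite directions under the same contrast, and the difference between the 2 ratios was not tested. It rested on 1434 and 1079 UMIs in erythroid and 8069 and 7825 UMIs in other cells.

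Barcodes that the filter on cells left out also carried ribosomal protein messengers, at 16.1% (E19 HSTS), 17.6% (E19 HS) and 23.0% (E16 HS) of their UMIs. Those with over 10% mitochondrial UMIs had 12.9%, 13.1% and 13.4% in the same order, and those with under 1000 UMIs had 20.6%, 24.8% and 20.2%.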

How the results depend on the processing

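No paired analysis was possible because each group has 1 library. *RPS6* kept its direction and stayed past 1.5-fold between libraries in both classes under each alternative. The ribosomal protein share is given here for erythroid and then other cells, in the order of the libraries used above. With all deposited barcodes it was 12.1, 13.0 and 16.0%, and 23.9, 25.9 and 22.9%. A stricter erythroid gate took at least 10 UMIs of *AHSP* and 5 of *ALAS2*, and for other cells at most 1 and 0. With that gate the share was 11.7, 12.7 and 15.7%, and 24.5, 26.3 and 22.9%. Without the deepest cells it was 11.6, 12.6 and 15.4%, and 24.1, 26.1 and 22.9%. As the mean of the share per cell it was 11.7, 12.7 and 15.5%, and 24.5, 26.6 and 23.4%. With a stricter filter on cells it was 24.6, 26.3 and 23.0% in other cells. Without mitochondrial and dominant genes it was 29.0, 28.9 and 25.9%, and 25.6, 27.4 and 23.9%, so that the erythroid share was 1.13, 1.06 and 1.08 times that of other cells.

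The count of members past 1.5-fold also moved with the scale. Without mitochondrial and dominant genes it was 3, 3 and 0 between erythroid and other cells, with median ratios of 1.05 and 1.01 at E19. Scaled to the members alone it was 3, 2 and 0, and 4 between E16 HS and E19 HS in other cells, all higher, so that each of the 4 lower calls was lost. Under TMM scaling it was 15 between E16 HS and E19 HS in erythroid cells (1 higher and 14 lower), and 42, 31 and 9 between erythroid and other cells, with medians of 1.81 and 1.54 at E19. There *RPL10* stood at 1.41, 1.09 and 1.05, *RPL18* at 1.42, 1.13 and 1.19, *RPL26L1* at 1.196 in E19 HS and 1.10 in E16 HS, and *RPS27L* at 1.71 in E19 HSTS, each above other cells and not below them as on the scale of all UMIs. With members of 1 UMI or more let in, 3 were past 1.5-fold between E19 libraries in other cells. The shifts between scales follow from the construction of each scale, and the last change from the lower count minimum. Counting error is small for most members, so the lack of replicate embryos, and not depth, limits the comparisons between libraries.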
